A study of Mus musculus with 8 samples.

Results

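Transcript levels of 79 genes for glycosyltransferases and sulfotransferases were compared across 3 groups of mouse colonic tumors. The genes were chosen by name, as every gene of the Galnt, B3gnt, B3galt, B4galt, B4galnt, Gcnt, Fut, St3gal, St6galnac and Chst families with a number after the family name, together with C1galt1 and A4gnt and without St6galnac1. They were 79 of the 19938 genes that the arrays measured under a single gene symbol. For Fut11 and St3gal1, which had more than 1 row, the brightest row was used. The rule uses no difference between groups. The 8 samples were bulk tumors, each on 1 Affymetrix MoGene 1.0 ST array. The K-rasG12D AOM group (3 arrays) held tumors induced with azoxymethane (AOM), a colon carcinogen, in the distal colon of mice labelled K-rasG12Dint, K-rasG12D being an activating mutant of the GTPase K-Ras. The LSL AOM group (2 arrays) held AOM tumors of the distal colon of mice labelled LSL-K-rasG12D/+, where LSL denotes a lox-stop-lox cassette that silences an allele until a recombinase removes it, and whose titles call the samples wild type. The serrated group (3 arrays) held serrated tumors of the proximal colon of mice labelled K-rasG12Dint with Ink4a/Arf-/-, the loss of a tumor suppressor locus, and its titles do not name AOM. All labels thus name a K-rasG12D allele, none names the recombinase or its driver, the age or the number of animals, and no normal colon was measured. Tumor type, carcinogen, colon segment and Ink4a/Arf genotype differ together between the serrated group and both AOM groups and cannot be told apart. Between the serrated and LSL AOM groups the K-ras label differs as well.

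Mucins are secreted or membrane-bound proteins whose serine- and threonine-rich stretches carry dense O-linked sugar chains. A chain is begun in the Golgi by a polypeptide GalNAc transferase, turned into a core structure by a core enzyme, lengthened with galactose and N-acetylglucosamine (GlcNAc), and capped by fucose, sialic acid, sulfate or a terminal GalNAc or GlcNAc. In the gut these chains give mucus its hydration and its resistance to proteases, and stomach and colon mucins carry different cores and caps. The family names also take in enzymes that act on other carriers. B3gnt5, B4galnt1, B4galt5, B4galt6 and St3gal5 make glycolipids, Fut8 acts on N-glycans, and B3galt6, B4galt7, Chst3, Chst7 and Chst11 to Chst15 build or sulfate the chains of proteoglycans. The label of mucin enzymes therefore fits only some of the 79 genes.

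Values are log2 signals, given per array in the order of the replicate numbers, from robust multi-array averaging (RMA), so a difference of 1 is a doubling. A gene passed where limma, fitted to all genes and all 8 arrays, gave a Benjamini-Hochberg adjusted p under 0.05. Rose and fell mean higher or lower in the serrated tumors. Errors beside differences are standard errors (SE). The signals of different genes come from different probes and were not set against each other. Above the median gene on all 8 arrays lay 38 of the 79 genes, against 8164 of all 19938 genes. Below it on all 8 lay 21 of the 79, against 8093 of all genes, and none of the genes that passed belonged to these 21. The median of the mean levels was 5.08 over the 79 genes and 4.26 over all genes. Serrated replicate 1 stood apart from its group. Its spread over all genes was 1.77 (SD of log2 signals), against 2.00 to 2.13 on the other 7 arrays. Its mean level over 10 stomach markers, of surface and gland cells together, was 6.40. That level was 10.36 and 10.21 on serrated replicates 2 and 3 and 3.59 to 4.40 on the AOM arrays.

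The main comparison set serrated tumors against the mean of both AOM groups. The genes that rose included 4 of 17 enzymes that begin O-glycans, 3 of 7 that make or branch cores, and B4galnt2, the enzyme of the Sd(a) blood group cap. Those that fell were the glycolipid enzyme B3gnt5, the LacdiNAc synthase B4galnt4, the galactosyltransferase B3galt2 and the chondroitin sulfotransferases Chst11 and Chst15. Of the 79 genes, 10 rose, 5 fell and 64 did not pass, so 19.0% passed, against 9.38% of all 19938 genes. By direction, 3.62% of all genes rose and 5.76% fell, so the 5 falls of the 79 genes were near the background. The median log2 difference was 0.19 over the 79 genes and 0.04 over all genes. With the dimmest 40% of genes left out, 2112 of the 11963 remaining genes passed in this comparison. Against K-rasG12D AOM and LSL AOM tumors alone, 1526 and 1269 of them passed. The part of signal level in the share of the 79 genes that passed was not tested. Arrays of the serrated and AOM tumors did not overlap in 14 genes that were higher and 8 that were lower, against 7.24% and 8.93% of all genes. The lower ones were near the background too. The count of 15 was 22 without serrated replicate 1 (17 rose and 5 fell). It was 7 without serrated replicate 2, 8 and 9 without LSL replicates 1 and 2, and 9 without K-rasG12D replicate 1. Since these are bulk tumors, more cells of a type and more RNA per cell cannot be told apart.

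**Figure D1:**
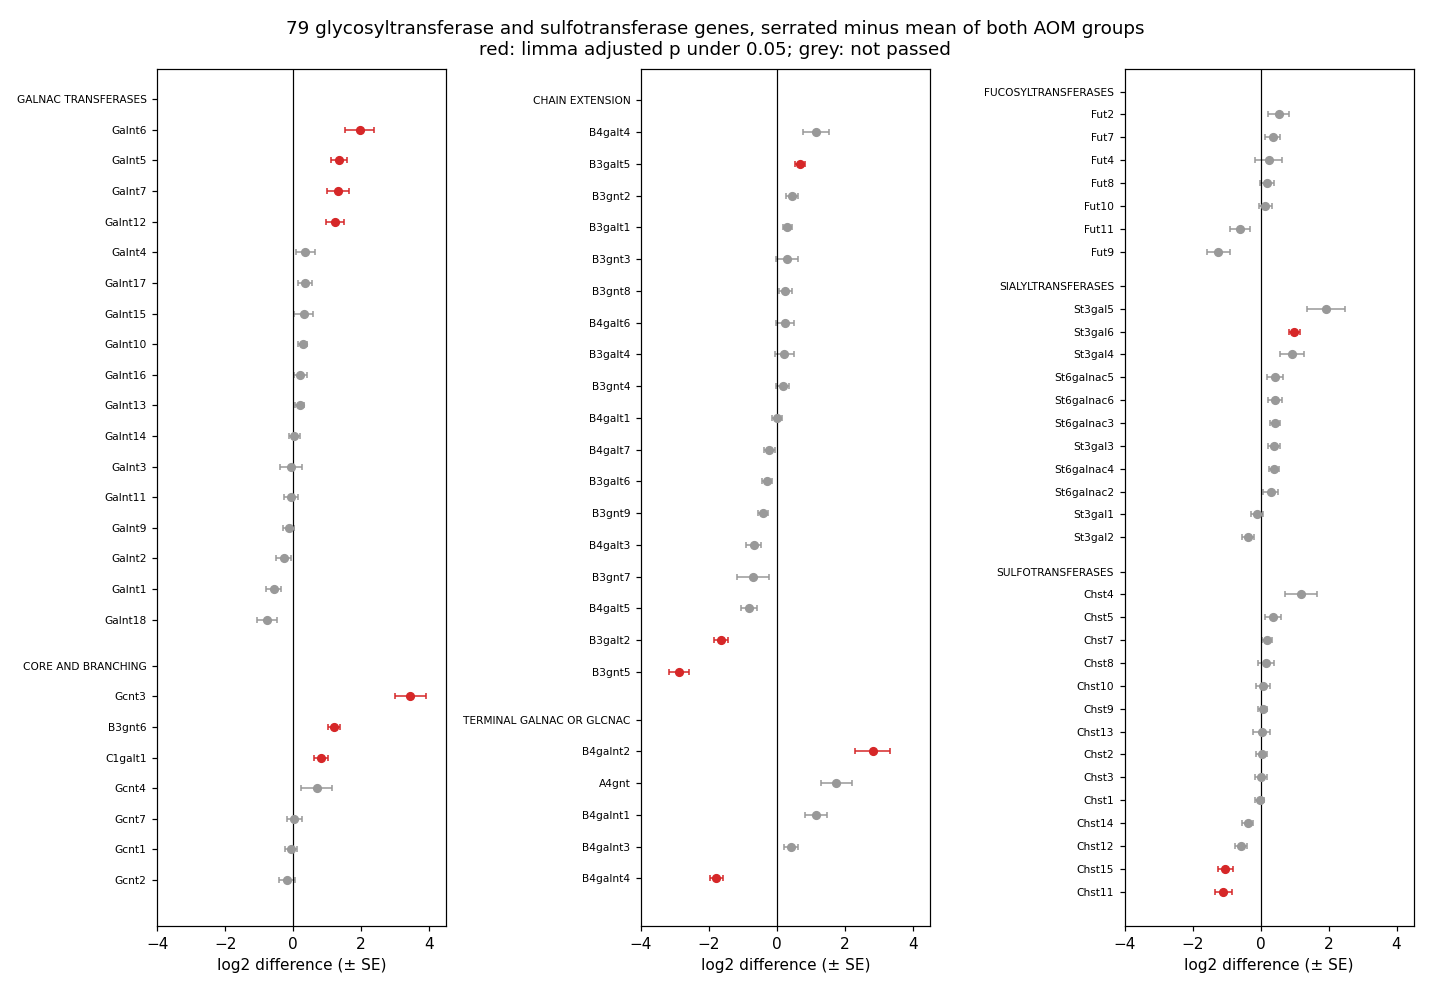
Log2 difference of each of the 79 genes between the serrated tumors and the mean of both AOM groups (horizontal axis, points with SE), ordered within groups of enzymes of like role. The 15 genes past the threshold are red, 10 to the right of 0 and 5 to the left, and run from B3gnt5 at -2.88 to Gcnt3 at 3.45.

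Of the 17 polypeptide GalNAc transferases, which attach the first sugar of mucin-type O-glycans, 4 rose and 0 fell (23.5%, against 9.38% of all genes), with a median of 0.21. Galnt6 stood at 4.19, 3.88 and 4.32 (K-rasG12D AOM), 4.46 and 4.79 (LSL AOM) and 5.06, 6.91 and 7.04 (serrated). All serrated tumors lay above all AOM tumors, but replicate 1 by little, and the log2 difference was 1.96 ± 0.42 (adjusted p = 0.0232). Galnt5 was measured at 3.37, 3.13 and 3.70 (K-rasG12D AOM), 3.30 and 3.46 (LSL AOM) and 4.34, 4.63 and 5.27 (serrated). The groups did not overlap, the AOM signals lay below the median gene, and the difference was 1.36 ± 0.23 (adjusted p = 0.00943). Galnt7, which prefers substrates that already carry a GalNAc, stood at 6.88, 6.73 and 7.19 (K-rasG12D AOM), 7.10 and 6.44 (LSL AOM) and 7.28, 8.49 and 8.76 (serrated). Its serrated replicate 1 lay just above the highest AOM tumor, and the difference was 1.33 ± 0.33 (adjusted p = 0.0409). Galnt12, one of the transferases expressed in the digestive tract, was found at 5.54, 6.32 and 5.90 (K-rasG12D AOM), 6.10 and 6.07 (LSL AOM) and 6.59, 7.40 and 7.73 (serrated). Its groups were also separate, with a difference of 1.24 ± 0.28 (adjusted p = 0.0277).

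Serrated replicate 1 was the lowest of the serrated tumors in all of these 4 genes. Without it the differences were 2.60 for Galnt6, 1.77 for Galnt7, 1.56 for Galnt12 and 1.56 for Galnt5. Galnt5 passed without any single array. Leaving out any LSL array, serrated replicate 2 or K-rasG12D replicate 1 ended the calls of Galnt6 and Galnt12, as did leaving out K-rasG12D replicate 2 for Galnt6 and K-rasG12D replicate 3 for Galnt12 (adjusted p from 0.0508 to 0.108 and 0.0566 to 0.119). Galnt7 lost its call without each of 7 arrays, all but serrated replicate 1 (0.0605 to 0.165). The other 13 transferases did not pass, among them Galnt4, whose mean was 8.22 ± 0.63 (SD, n = 3) in serrated, 7.96 ± 0.17 (SD, n = 3) in K-rasG12D AOM and 7.74 ± 0.32 (SD, n = 2) in LSL AOM tumors. The span of Galnt4 overlaps that of Poc1b in RefSeq, so its signal may hold both.

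Of the 7 core and branching enzymes, 3 rose and 0 fell (42.9%, against the same 9.38%), with a median of 0.69. Gcnt3 is the mucin-type enzyme of core 2 and core 4 branches. It stood at 5.26, 5.36 and 6.23 (K-rasG12D AOM), 5.77 and 5.88 (LSL AOM) and 7.88, 9.83 and 9.82 (serrated). Every serrated tumor exceeded every AOM tumor, by more than the range among the AOM tumors, and the log2 difference of 3.45 ± 0.45 (adjusted p = 0.00303), or 10.9-fold, was the largest rise among the 79 genes. It was 4.10 without serrated replicate 1, and the call held without any single array. B3gnt6, the core 3 synthase on which core 4 is built, stood at 2.88, 2.55 and 2.74 (K-rasG12D AOM), 2.60 and 2.81 (LSL AOM) and 3.85, 3.62 and 4.27 (serrated). The groups were apart, and the difference was 1.20 ± 0.18 (adjusted p = 0.00581), a call that held without any single array. Its signal lay above the median gene on 1 of the 8 arrays.

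C1galt1, the synthase of core 1, was above the median gene on every array, at 8.57, 9.05 and 8.67 (K-rasG12D AOM), 8.12 and 7.76 (LSL AOM) and 8.98, 9.04 and 9.50 (serrated). Serrated replicates 1 and 2 lay beside the highest K-rasG12D AOM tumor, so these groups overlapped, while both LSL AOM tumors lay lower. The log2 difference was 0.82 ± 0.19 (adjusted p = 0.0328). It did not pass without K-rasG12D replicates 1 or 3, serrated replicate 2 or any LSL array (adjusted p from 0.0646 to 0.111), nor with the AOM arrays taken as 1 group (0.138). Gcnt1 and Gcnt4, which also make core 2, and Gcnt2, which branches longer chains, differed by -0.06 ± 0.18, 0.69 ± 0.45 and -0.19 ± 0.23, and none passed (adjusted p of 0.376 to 0.848).

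**Figure D2:**
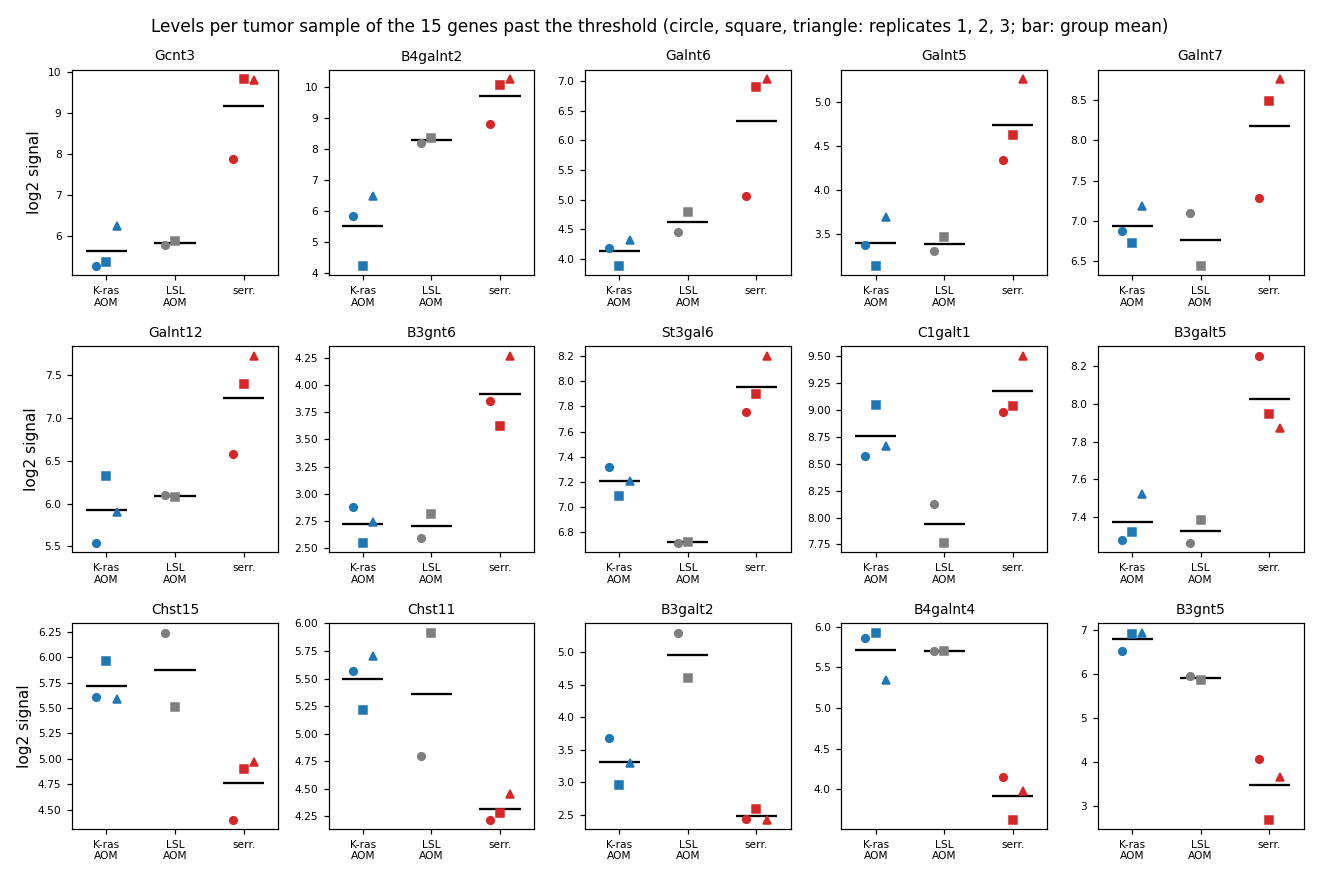
Log2 signal (vertical axes, scaled per gene) of the 15 genes that passed between serrated and all AOM tumors, for 3 K-rasG12D AOM, 2 LSL AOM and 3 serrated tumors, with a bar at each group mean. Serrated replicate 1 (red circle) is the lowest serrated tumor in 8 of the 10 genes that rose, and the serrated tumors of Gcnt3, at 7.88 to 9.83, lie above the AOM tumors at 5.26 to 6.23.

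Chain extension held the largest fall. Of these 18 enzymes, 1 rose and 2 fell (16.7%, against 9.38%), with a median of 0.08. B3gnt5 adds GlcNAc to lactosylceramide and so opens the lacto-series glycolipids. It stood at 6.53, 6.92 and 6.94 (K-rasG12D AOM), 5.96 and 5.87 (LSL AOM) and 4.07, 2.69 and 3.66 (serrated). The serrated tumors lay far below both AOM groups, under the median gene of the arrays, and the difference was -2.88 ± 0.29 on the log2 scale (adjusted p = 0.00103), a 7.36-fold fall. The call held without any single array and under every alternative tried. B3galt2, which adds galactose to GlcNAc, stood at 3.68, 2.96 and 3.30 (K-rasG12D AOM), 5.30 and 4.60 (LSL AOM) and 2.44, 2.58 and 2.42 (serrated). All 3 groups were separate, with the LSL AOM tumors highest and the serrated tumors lowest, and the difference from both AOM groups was -1.65 ± 0.22 (adjusted p = 0.00319). With the AOM arrays taken as 1 group it did not pass (0.0810). The span of B3galt2 lies within that of Cdc73 in RefSeq, so its signal may include that gene. That signal lay above the median gene on only 2 of the 8 arrays, those of the LSL AOM tumors.

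B3galt5, which makes the type 1 chains that carry Lewis antigens in the gut, was the extension enzyme that rose. Its signal was 7.28, 7.32 and 7.52 (K-rasG12D AOM), 7.26 and 7.39 (LSL AOM) and 8.26, 7.95 and 7.87 (serrated). The serrated tumors were above all AOM tumors by a small margin, and the difference was 0.67 ± 0.15 (adjusted p = 0.0287). It did not pass without K-rasG12D replicates 1 or 2, serrated replicate 2 or either LSL array (0.0737 to 0.0994). B4galt1, the enzyme of most type 2 chains, had means of 9.06 ± 0.17 (SD, n = 3) in serrated, 9.14 ± 0.11 (SD, n = 3) in K-rasG12D AOM and 8.98 ± 0.04 (SD, n = 2) in LSL AOM tumors and did not pass (adjusted p = 0.988). B4galt5, which makes lactosylceramide, the acceptor of B3gnt5, did not pass at -0.81 ± 0.23 (adjusted p = 0.0655), with serrated tumors (6.37, 6.02 and 5.47) that all lay below its AOM tumors.

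Among the 5 enzymes that add a terminal GalNAc or GlcNAc, 1 rose and 1 fell (40%, against 9.38%), with a median of 1.16. B4galnt2 adds the GalNAc of the Sd(a) antigen, a cap typical of colonic mucins. It stood at 5.85, 4.23 and 6.48 (K-rasG12D AOM), 8.20 and 8.38 (LSL AOM) and 8.81, 10.10 and 10.27 (serrated). The 3 groups formed separate steps, and serrated tumors exceeded the mean of both AOM groups by 2.82 ± 0.51 (adjusted p = 0.0121). That call was lost without serrated replicate 2 or LSL replicate 1 (0.0509 to 0.0663), and with the AOM arrays taken as 1 group (0.0549). B4galnt4, which makes the LacdiNAc unit on GlcNAc-ending chains, stood at 5.86, 5.93 and 5.34 (K-rasG12D AOM), 5.71 and 5.70 (LSL AOM) and 4.15, 3.63 and 3.97 (serrated). The AOM groups overlapped and all serrated tumors were below them, with a difference of -1.79 ± 0.19 (adjusted p = 0.00129) that passed without any single array and under every alternative.

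A4gnt places the alpha-linked GlcNAc that marks gland mucins of the stomach. It stood at 3.12, 2.99 and 3.86 (K-rasG12D AOM), 2.93 and 3.21 (LSL AOM) and 3.88, 4.73 and 6.24 (serrated). The serrated tumors lay above the AOM tumors, replicate 1 by only a little, and the difference of 1.75 ± 0.47 missed the threshold narrowly (adjusted p = 0.0500036). It was 2.29 without serrated replicate 1 and 1.11 without replicate 3, and passed in both (adjusted p = 0.0102 and 0.0366). Of the 15 alternatives tried, 9 did not pass, with an adjusted p of up to 0.151. B4galnt1, which makes the gangliosides GM2 and GD2, did not pass either at 1.16 ± 0.33 (adjusted p = 0.0587), with serrated replicate 1 at 5.52 within the AOM range and replicates 2 and 3 at 7.09 and 6.78. The span of B4galnt1 overlaps that of Slc26a10 in RefSeq, so its signal may hold both.

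Promoter sequences are shown for 4 of the genes that passed, to set start sites of enzymes that rose beside those of enzymes that fell. From RefSeq (build GRCm38.p6), 61 of the 79 genes had a start site, with 80 sites in all, and the sequences shown are the 250 bases before the start of the 2 largest rises and 2 largest falls among genes with a single site in the table. The largest rise, Gcnt3, and Galnt6 are therefore not shown. Both strands were searched for the TATA box, written as TATAAA, and for the GC box, written as GGGCGG. The TCF/LEF core was searched as CTTTGA. For the CDX core the letters were TTTATG, and for the FOXA core they were TGTTTAC. The E-box, which reads alike on both strands, was searched as CACGTG. None of these motifs holds another, and matches are in capitals. The sequences run 5′ to 3′ on the strand of the gene, and lie at chr11:95914872-95915121 (minus strand), chr2:57997905-57998154 (plus), chr16:19759984-19760233 (plus) and chr7:141060728-141060977 (plus).
B4galnt2: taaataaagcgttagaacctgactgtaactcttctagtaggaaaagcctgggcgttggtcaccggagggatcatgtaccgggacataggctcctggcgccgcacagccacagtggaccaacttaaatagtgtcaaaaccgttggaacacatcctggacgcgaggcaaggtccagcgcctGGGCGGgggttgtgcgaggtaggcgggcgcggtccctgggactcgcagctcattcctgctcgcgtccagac
Galnt5: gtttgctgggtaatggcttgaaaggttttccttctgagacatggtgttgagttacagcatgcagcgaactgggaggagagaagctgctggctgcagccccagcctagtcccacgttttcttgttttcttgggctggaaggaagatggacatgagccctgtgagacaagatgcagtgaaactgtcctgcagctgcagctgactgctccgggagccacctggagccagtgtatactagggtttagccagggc
B3gnt5: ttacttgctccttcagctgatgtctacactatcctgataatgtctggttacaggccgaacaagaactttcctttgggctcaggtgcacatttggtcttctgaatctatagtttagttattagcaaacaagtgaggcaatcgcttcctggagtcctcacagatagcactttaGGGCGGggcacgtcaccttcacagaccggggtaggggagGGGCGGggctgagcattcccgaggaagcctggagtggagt
B4galnt4: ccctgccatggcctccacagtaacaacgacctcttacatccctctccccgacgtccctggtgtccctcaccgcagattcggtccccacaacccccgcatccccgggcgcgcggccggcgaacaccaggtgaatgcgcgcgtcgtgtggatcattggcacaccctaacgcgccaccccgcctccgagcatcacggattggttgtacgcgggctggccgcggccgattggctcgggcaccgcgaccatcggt
The GC box was the only one of the 6 motifs found, 1 time before B4galnt2 and 2 times before B3gnt5. Their G and C content was 58.4%, 54.0%, 51.2% and 67.6% in the order shown, with 18, 3, 7 and 30 CpG pairs. Over all 80 windows of these 61 genes, 53.8% held the GC box and 1.25% the TATA box, against 32.7% and 12.4% of all 32851 windows in the table. Of the other motifs, the TCF/LEF core was in 8.75% against 13.8%, the CDX core in 7.50% against 10.8%, the FOXA core in 1.25% against 3.17% and the E-box in 7.50% against 6.02%. No match is a shown binding site, and the windows of genes that rose and of genes that fell were too few (11 and 6) to set against each other.

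None of the 7 fucosyltransferases rose or fell (0 of 7), with a median of 0.19. At an unadjusted limma p under 0.05 there was 1, against 24.7% of all genes. Fut2, the secretor enzyme that places alpha-linked fucose on gut mucins, stood at 8.19, 7.75 and 8.06 (K-rasG12D AOM), 7.84 and 8.33 (LSL AOM) and 7.76, 8.94 and 9.01 (serrated). Serrated replicates 2 and 3 were the highest tumors, but replicate 1 lay among the AOM tumors, and the difference of 0.53 ± 0.30 did not pass (adjusted p = 0.313). Without serrated replicate 1 it was 0.93 (adjusted p = 0.0194), but without replicates 2 or 3 it was 0.34 and 0.31. Of the 15 alternatives tried, 13 did not pass, with an adjusted p of up to 0.620. Fut9, which makes the Lewis x structure, was lower in every serrated tumor (2.45, 3.39 and 3.19) than in any AOM tumor (3.55 to 5.36), with a difference of -1.25 ± 0.35 that did not pass (adjusted p = 0.0565).

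Of the 11 sialyltransferases, 1 rose and 0 fell (9.09%, near the 9.38% of all genes), with a median of 0.42. St3gal6, which caps type 2 chains with sialic acid, stood at 7.31, 7.09 and 7.21 (K-rasG12D AOM), 6.71 and 6.72 (LSL AOM) and 7.76, 7.90 and 8.20 (serrated). The serrated tumors exceeded all AOM tumors, and the LSL AOM tumors were lowest. The difference was 0.99 ± 0.15 (adjusted p = 0.00624), and the call held without any single array. St3gal5, which makes the ganglioside GM3, had the largest difference of the family at 1.92 ± 0.57 but did not pass (adjusted p = 0.0706). Its serrated tumors were 3.41, 5.89 and 6.23, so replicate 1 lay within the AOM range of 2.88 to 3.58 and replicates 2 and 3 far above it. St6galnac6, which acts mainly on gangliosides, had means of 8.50 ± 0.27 (SD, n = 3), 7.77 ± 0.37 (SD, n = 3) and 8.38 ± 0.03 (SD, n = 2) in serrated, K-rasG12D AOM and LSL AOM tumors, and its difference of 0.42 ± 0.20 did not pass.

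Of the 14 sulfotransferases, 0 rose and 2 fell (14.3%, against 9.38% of all genes), with a median of 0.03. Both that fell sulfate chondroitin, a proteoglycan chain, and not mucins. Chst15 stood at 5.61, 5.96 and 5.58 (K-rasG12D AOM), 6.24 and 5.51 (LSL AOM) and 4.40, 4.90 and 4.97 (serrated). The serrated tumors lay below all AOM tumors, with a difference of -1.04 ± 0.22 (adjusted p = 0.0233). Chst11 stood at 5.57, 5.22 and 5.71 (K-rasG12D AOM), 4.80 and 5.92 (LSL AOM) and 4.22, 4.28 and 4.45 (serrated). Its groups were also apart, though LSL replicate 1 came near the serrated tumors, and the difference was -1.11 ± 0.25 (adjusted p = 0.0288). Chst15 did not pass without K-rasG12D replicates 1 or 2, serrated replicate 2 or LSL replicate 1 (0.0504 to 0.0760), nor Chst11 without K-rasG12D replicates 1 or 3, serrated replicates 1 or 2 or LSL replicate 2 (0.0539 to 0.112). Chst4, which sulfates GlcNAc on mucin-type chains, stood at 5.28, 4.68 and 6.04 (K-rasG12D AOM), 5.27 and 5.68 (LSL AOM) and 6.34, 5.62 and 7.79 (serrated). The serrated and AOM tumors overlapped, and the difference of 1.18 ± 0.48 did not pass (adjusted p = 0.166).

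Markers of cell types differed between the same groups, and their counts stand against 3.62% of all genes that rose and 5.76% that fell. Beside the rises, 7 of 10 stomach markers, of surface and gland cells together, rose and 0 fell. Their per-array mean levels were 6.40 to 10.36 in serrated, 4.02 to 4.40 in K-rasG12D AOM and 3.59 to 3.94 in LSL AOM tumors. Of 9 goblet cell markers, 4 rose and 0 fell, with means of 8.84 to 9.09, 6.18 to 8.07 and 7.72 to 8.46 in the same order. Of 10 colon epithelium markers, 3 rose, with means of 9.82 to 9.93, 9.03 to 9.13 and 9.11 to 9.18. Beside the falls, 3 of 8 fibroblast markers fell, with means of 6.08 to 7.00, 7.12 to 7.62 and 6.91 to 7.88, and 2 of 11 leukocyte markers fell, with means of 4.05 to 4.54, 4.59 to 5.37 and 4.45 to 4.51. None of 7 endothelial or 6 smooth muscle markers passed. Cd79a, a B cell gene, was the single marker below the median gene on all 8 arrays. The part of these cell types in the enzymes' differences was not tested.

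Against the K-rasG12D AOM tumors alone, which share the K-rasG12Dint label with the serrated tumors, 9 genes rose and 5 fell, so 17.7% of the 79 passed, against 6.45% of all genes (2.46% rose and 3.99% fell). The median was 0.14, against 0.05 over all genes. Arrays did not overlap in 19 genes that were higher and 14 that were lower, against 12% and 13.9% of all genes. This comparison shares its serrated and K-rasG12D arrays with the previous one and is no separate support for it. With each array centred on its median the split was 10 and 2, and Chst11, Chst12 and Fut9 no longer passed. The count was 4 to 6 without any single K-rasG12D array or serrated replicate 2, and 9 without either LSL array. It was 21 without serrated replicate 3. B4galnt2 rose by 4.21 ± 0.57 (adjusted p = 0.00494), or 18.5-fold, the largest difference in either direction, and Gcnt3 rose by 3.56 ± 0.50 (0.00568). B3gnt5 fell by 3.32 ± 0.32 (0.00131) and B4galnt4 by 1.79 ± 0.21 (0.00297). These 4 calls held without any single array. B3gnt6 (1.19 ± 0.20, 0.0131) did not pass without K-rasG12D replicate 2 (0.0683), nor Galnt5 (1.35 ± 0.26, 0.0197) without K-rasG12D replicates 1 or 2 or serrated replicate 2 (0.0642 to 0.0936).

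Several genes passed against the K-rasG12D AOM tumors and not against both AOM groups together. Galnt10, a transferase that acts on peptides already bearing GalNAc, stood at 4.77, 4.94 and 4.87 (K-rasG12D AOM), 5.75 and 5.91 (LSL AOM) and 5.60, 5.52 and 5.77 (serrated). The serrated tumors were above the K-rasG12D AOM and below the LSL AOM tumors except that replicate 3 reached the latter, and the difference from K-rasG12D AOM tumors was 0.77 ± 0.15 (adjusted p = 0.0236). B4galnt3, also a LacdiNAc synthase, stood at 5.19, 4.68 and 4.95 (K-rasG12D AOM), 6.33 and 5.75 (LSL AOM) and 5.64, 6.15 and 5.92 (serrated). The serrated tumors overlapped the LSL AOM tumors and lay above the K-rasG12D AOM tumors, by 0.96 ± 0.23 (0.0413). Fut9 fell by 1.62 ± 0.38 (0.0416) and Chst12, which sulfates chondroitin, by 0.89 ± 0.21 (0.0387). Chst12 stood at 5.48, 5.80 and 5.87 (K-rasG12D AOM), 5.14 and 5.06 (LSL AOM) and 4.74, 4.54 and 5.19 (serrated), so its serrated tumors overlapped the LSL AOM tumors. Neither Fut9 nor Chst12 passed with each array centred on its median or with the arrays of the contrast alone (0.0585 to 0.0627 and 0.0610 to 0.0698).

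The remaining calls against the K-rasG12D AOM tumors were Galnt6 (2.20 ± 0.46, adjusted p = 0.0280), Galnt12 (1.32 ± 0.31, 0.0398), St3gal6 (0.75 ± 0.17, 0.0368) and Chst11 (-1.18 ± 0.28, 0.0416). Of the 14 genes that passed, 10 lost the call without at least 1 array (adjusted p of 0.0525 to 0.171). Galnt10 and B4galnt3 lost it without any K-rasG12D array or serrated replicate 2. Galnt6, Galnt12 and St3gal6 lost it without any array but serrated replicates 1 and 3. Chst11 lost it without any K-rasG12D array or serrated replicates 1 or 2, and Chst12 without any array but serrated replicate 3. Galnt6, Galnt12 and St3gal6 also lost it with the arrays of the contrast alone, and St3gal6 with trend and robust moderation. Fut9 lost it without any array but K-rasG12D replicate 1 and serrated replicate 3.

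Against the LSL AOM tumors alone, 5 genes rose and 3 fell, which is 10.1% of the 79, against 5.71% of all genes (2.31% rose and 3.40% fell). The falls were thus near the background. The median was 0.13 against 0.04. The K-ras label also differs here. This comparison shares its serrated and LSL arrays with the main one and is no separate support for it. At an unadjusted p under 0.05 there were 28, against 20.3% of all genes. Arrays did not overlap in 23 genes higher and 12 lower, against 15.6% and 17.4%, so the lower ones were no more frequent than among all genes. Gcnt3 rose by 3.35 ± 0.56 (adjusted p = 0.0132), Galnt5 by 1.37 ± 0.29 (0.0297), St3gal6 by 1.24 ± 0.19 (0.00996), C1galt1 by 1.23 ± 0.24 (0.0228) and B3gnt6 by 1.21 ± 0.23 (0.0206). B3galt2 fell by 2.46 ± 0.27 (0.00264), B3gnt5 by 2.44 ± 0.36 (0.00796) and B4galnt4 by 1.79 ± 0.24 (0.00522). B3galt2 alone kept its call without each array in turn. The other 7 lost it without either LSL array, which leaves 1 LSL array whose spread is taken from the other groups, and Galnt5 and C1galt1 also without serrated replicate 2 and Galnt5 without K-rasG12D replicate 1 (adjusted p from 0.0545 to 0.198). B3gnt6, C1galt1, Galnt5 and St3gal6 did not pass with the arrays of the contrast alone. B4galnt2 did not pass here at 1.43 ± 0.63 (0.246). The count was 17 without serrated replicate 1. It was 2 without LSL replicate 1 and 1 without LSL replicate 2.

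Between the AOM groups, which differ in the genotype label and share carcinogen and segment, limma called 0 of the 79 genes and 0% of all genes (adjusted p of 0.224 or more). At an unadjusted p under 0.05 there were 15 of the 79, against 8.36% of all genes. Arrays did not overlap in 16 genes higher and 14 lower in K-rasG12D AOM tumors, against 16.4% and 15.7% of all genes, which is near the background. The differences of smallest p were those of B3galt2 at -1.63 ± 0.27 (adjusted p = 0.224), Galnt10 at -0.98 ± 0.17 (0.233), B4galnt2 at -2.77 ± 0.63 (0.269) and B4galnt3 at -1.10 ± 0.25 (0.276), all lower in K-rasG12D AOM tumors. Of these, the B4galnt2 signals of the K-rasG12D AOM tumors, 5.85, 4.23 and 6.48, were widely spread, and those of the LSL AOM tumors, 8.20 and 8.38, lay close together. These 4 values are also the tests of whether the serrated group differs from the AOM groups by unequal amounts, and none passed. The difference of B4galnt2 from the serrated tumors, 4.21 ± 0.57 against the K-rasG12D and 1.43 ± 0.63 against the LSL AOM tumors, is therefore not shown to depend on which AOM group is taken.

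**Figure D3:**
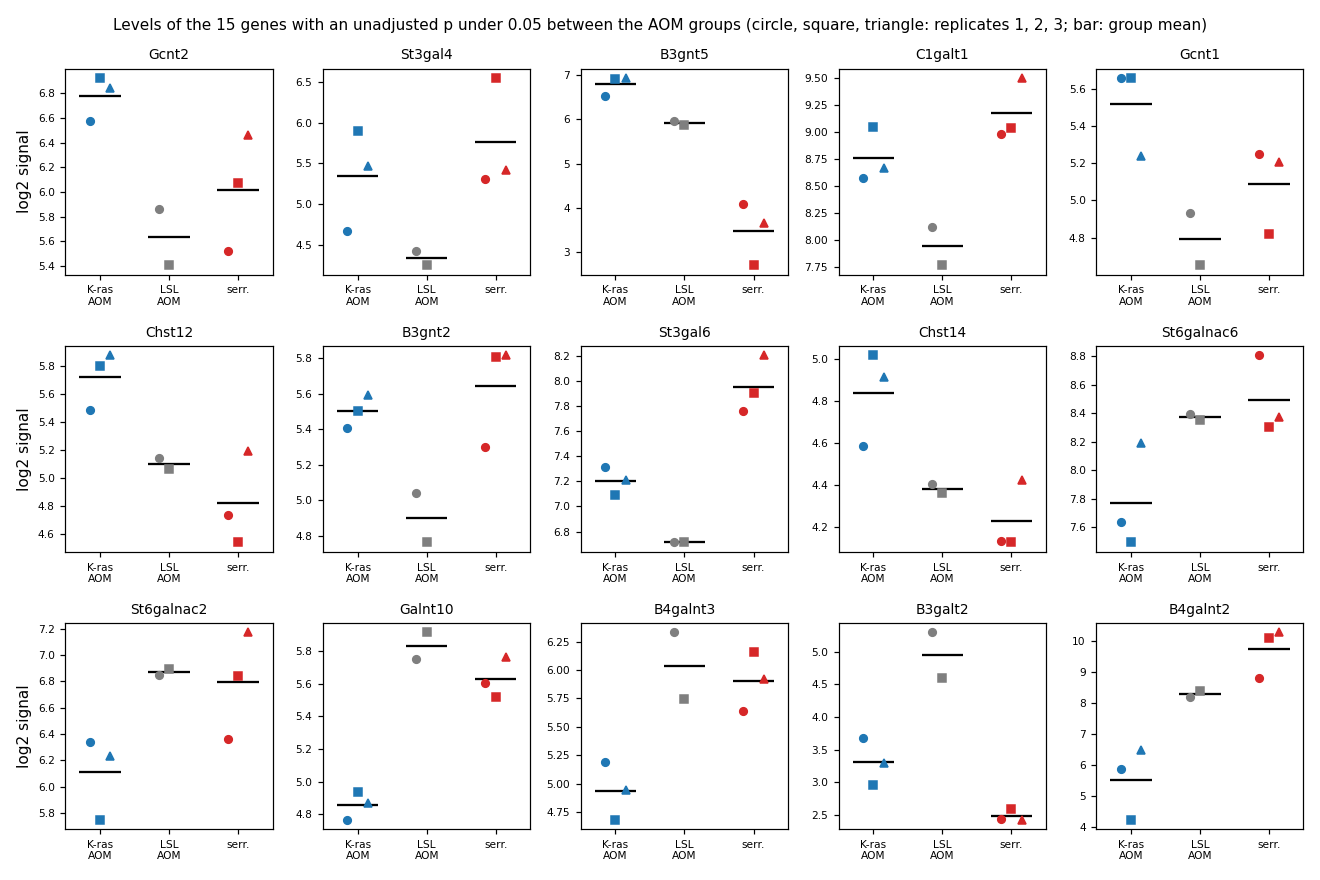
Log2 signal (vertical axes, scaled per gene) of the 15 genes with an unadjusted limma p under 0.05 between K-rasG12D AOM and LSL AOM tumors, for all 8 tumors, with a bar at each group mean. None passed after adjustment, and the serrated tumors lie nearer the LSL AOM tumors in some panels (Galnt10, B4galnt3) and beyond both AOM groups in others (B4galnt2, B3gnt5).

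Genes that supply these enzymes with substrates were listed beside them. Of 26 measured genes for the synthesis and import of sugar nucleotides, sulfate and sulfate donors, 7 rose and 0 fell against all AOM tumors, or 26.9% against the 9.38% of all genes, with a median of 0.17. Gmds, which takes the first step from GDP-mannose to GDP-fucose, stood at 7.49, 7.83 and 7.98 (K-rasG12D AOM), 7.89 and 7.62 (LSL AOM) and 8.76, 9.33 and 9.61 (serrated). Its serrated tumors were all higher, by 1.47 ± 0.22 (adjusted p = 0.00534). Slc26a2, a sulfate transporter, stood at 6.86, 6.88 and 7.57 (K-rasG12D AOM), 6.61 and 5.31 (LSL AOM) and 8.20, 9.07 and 9.26 (serrated). Its serrated tumors were all higher too, by 2.31 ± 0.35 (0.00600). Gfpt1, which feeds fructose-phosphate into the hexosamine pathway, rose by 1.39 ± 0.22 (0.00699), and Uap1, which makes UDP-GlcNAc and UDP-GalNAc, by 1.12 ± 0.18 (0.00699). The other 3, named after their values were seen, were the CMP-sialic acid transporter Slc35a1 (0.78 ± 0.18), the sulfate transporter Slc26a1 (0.73 ± 0.17) and Ugp2, which makes UDP-glucose (1.07 ± 0.26). In Ugp2 the groups overlapped, with serrated replicate 1 at 6.09 and K-rasG12D replicate 2 at 6.18. Slc26a1 lay above the median gene on only 1 array. The count of 7 was 4 without K-rasG12D replicates 1 or 2 or serrated replicate 2. It was 6 of 26 against K-rasG12D AOM tumors (23.1%, against 6.45% of all genes) and 4 of 26 against LSL AOM tumors (15.4%, against 5.71%), all rises.

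Of 11 mucin genes, the substrates, 3 rose and 0 fell (27.3%, against 9.38% of all genes), with a median of 1.70. Muc5ac and Muc6 are also among the stomach markers and Muc2 among the goblet cell markers, so these counts share genes. Muc5ac rose by 6.32 ± 0.87 (adjusted p = 0.00395), Muc4 by 1.89 ± 0.29 (0.00624) and Muc5b by 1.70 ± 0.42 (0.0371). Muc6, the gland mucin that carries the product of A4gnt, stood at 3.44, 3.31 and 3.16 (K-rasG12D AOM), 3.06 and 3.38 (LSL AOM) and 3.78, 7.72 and 9.21 (serrated). Serrated replicate 1 lay close to the AOM tumors and replicates 2 and 3 far above, whereas in A4gnt only replicate 3 stood far above, and the difference of 3.64 ± 0.99 did not pass (0.0539). Muc2, the main mucin of goblet cells, stood at 9.20, 7.86 and 10.72 (K-rasG12D AOM), 9.25 and 10.76 (LSL AOM) and 11.06, 9.96 and 10.39 (serrated). Its groups overlapped, and the difference was 0.84 ± 0.61 (0.430). Of 21 related transferases outside the name rule, such as the St8sia and Gal3st families and the C1galt1 chaperone C1galt1c1, 1 rose, Galntl6 (0.67 ± 0.18, 0.0499), and 0 fell, which is 4.76% and below the background. That single call was lost without K-rasG12D replicates 1 or 2, serrated replicate 2 or either LSL array. Galntl6 also lay below the median gene on every array.

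**Figure D4:**
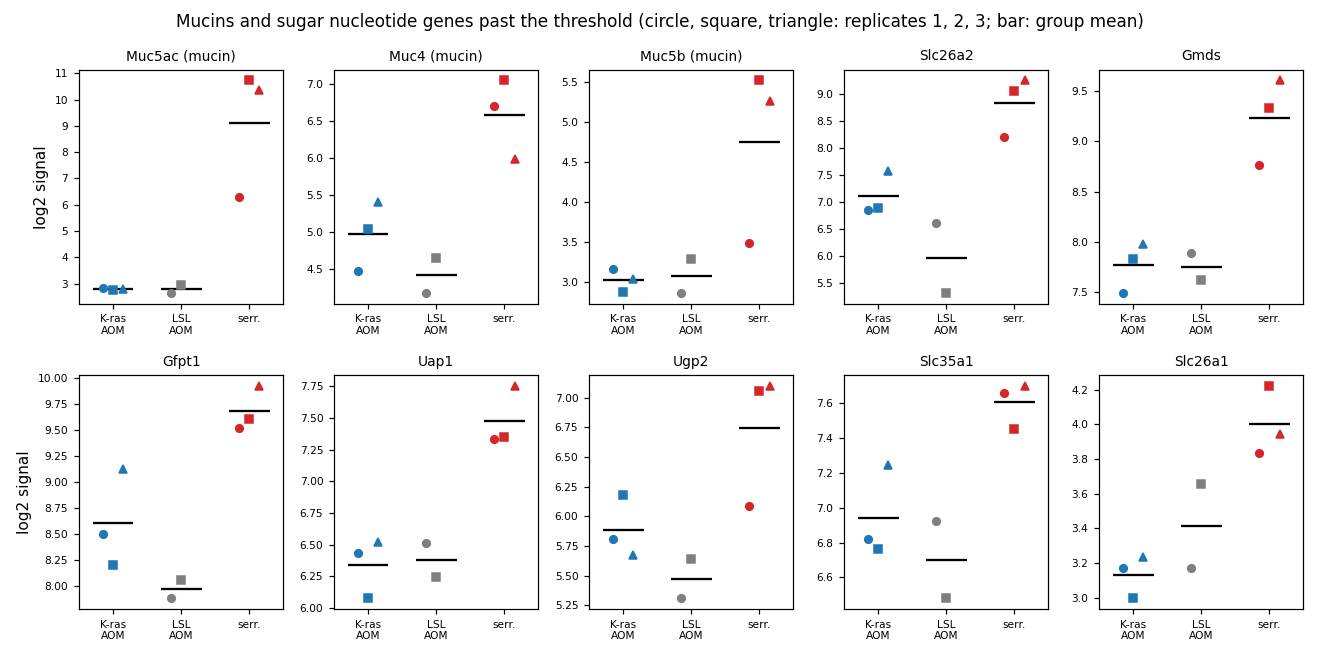
Log2 signal (vertical axes, scaled per gene) of the 3 mucins and 7 sugar nucleotide and sulfate genes that passed between serrated and all AOM tumors, for 3 K-rasG12D AOM, 2 LSL AOM and 3 serrated tumors, with a bar at each group mean. Muc5ac and Muc5b are far lower in serrated replicate 1 (circle) than in replicates 2 and 3, whereas the 3 serrated tumors of Uap1 lie together above the AOM tumors.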

How the data were processed

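The deposited values are log2 signals that the authors made with GCOS and RMA, per the submitters' processing notes. Versions and settings are not stated there. Of 35557 probe sets, 21789 had exactly 1 gene symbol in the platform annotation, and the brightest row per gene left 19938 genes, 79 of them members (81 rows, all 79 matched RefSeq). The group means of all 8 arrays were fitted in limma 3.58.1 (R 4.3.3) with 5 residual degrees of freedom, trend and robust off and no filter, and the 3 groups share 1 spread per gene. For genes that vary more in serrated tumors, errors are then too small for serrated against all AOM and against K-rasG12D AOM tumors. Between the AOM groups they are too large. The code was tested on simulated data. Members, lists and tests were chosen with earlier results of these data known. Named genes are every member that passed, the brightest member of each role, A4gnt, C1galt1, B3gnt6, Gcnt3 and Fut2, and up to 4 partner genes per list. Others were named after their values were seen. Whether samples came from separate animals is not known, so p-values measure only the spread between them, which may be technical. For arrays, their number limits the precision.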

Additional observations from a re-analysis of the deposited data

How the results depend on the processing

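No paired analysis was possible because the labels give nothing that pairs samples across groups. The replicate numbers used here follow the order of the samples within each group. The counts of members that passed were 15, 14, 8 and 0 for serrated against all AOM, K-rasG12D AOM and LSL AOM tumors and between the AOM groups. Leaving out each array in turn gave 7 to 22, 4 to 21, 1 to 17 and 0 to 0. Array weights gave 50, 49, 29 and 2, but their estimation stopped short of convergence and put a weight of 25.6 on serrated replicate 2, against 0.168 to 2.01 on the others, so these counts rest on 1 serrated array. The arrays of the contrast alone gave 9 against K-rasG12D AOM and 4 against LSL AOM tumors, with fewer samples in each fit. All other settings (trend and robust moderation, leaving out the dimmest 40% of genes, quantile normalization, median centring, the mean of all rows) stayed within 1.5 times the reported counts. No member that passed changed sign under any setting in the comparison where it passed, nor did A4gnt or Fut2 against all AOM tumors. The signs of the other named members were not followed. With 2 or 3 arrays a group and 21 members under the median gene on every array, small differences of dim genes cannot be resolved.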
